A study of Mus musculus with 8 samples.

Results

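The genes described here, across the 8 RNA-seq libraries of a study of mouse mammary tumor cells with and without the Notch ligand Dll1, are Npy, Sostdc1, Asic1, Clic6, Slc26a4, Mfsd4a, Rgr, Hepacam2 and Rasgef1c. They are 9 of the 53697 genes in the table of counts. They were chosen by their measured rise in Dll1+ over Dll1- cells of both reporter lines, so that rise is given below as a description and carries no test. The list has also been called channels and transporters, which by known function covers Asic1, Clic6, Slc26a4 and Mfsd4a, while the other members are secreted, adhesion, opsin and intracellular signaling proteins.

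All mice carried MMTV-PyMT, the polyoma middle T oncogene under a viral promoter active in mammary epithelium, and gave spontaneous mammary tumors on the C57BL/6 strain. Age was not given in the labels. PyMT-Dll1GFP mice (2 mice) bear GFP knocked into the Dll1 locus, and PyMT-Dll1mCh mice (2 mice) bear mCherry on a bacterial artificial chromosome, a transgene that lies outside the locus. Digested tumors were depleted of CD45, CD31 and Ter119 cells, which are blood, endothelial and erythroid cells, and sorted by the reporter, so the 8 libraries are 4 pairs, with a Dll1+ and a Dll1- one from every mouse. The labels name the mouse but not whether 1 or several tumors were pooled.

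Dll1 is a membrane-bound ligand that activates Notch receptors on neighboring cells, and in the mammary gland it is known as a gene of basal cells. The members act at different places in a cell. Npy is a secreted peptide that signals through G protein-coupled receptors, and Sostdc1 is a secreted antagonist of BMP and Wnt ligands. Asic1 is a cation channel opened by protons, Clic6 belongs to the chloride intracellular channel family, Slc26a4 (pendrin) exchanges chloride for bicarbonate or iodide, and Mfsd4a is a transporter of the major facilitator superfamily. Rgr is an opsin that binds retinal in the eye, Hepacam2 is an immunoglobulin-type membrane protein, and Rasgef1c carries an exchange factor domain for small Ras-type GTPases.

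On GRCm38 all members are protein-coding genes and they lie on 7 chromosomes. Npy is at chr6:49822710-49829507 (plus strand) and Hepacam2 at chr6:3457096-3498298 (minus strand), 46.3 Mb apart. Slc26a4 at chr12:31519827-31559969 (minus strand) and Sostdc1 at chr12:36314139-36318452 (plus strand) lie 4.75 Mb apart, with 80 annotated genes between them, of which 25 were tested and 2 were higher in Dll1+ cells. Asic1 is at chr15:99670368-99701130 (plus), Clic6 at chr16:92485736-92541243 (plus), Mfsd4a at chr1:132022806-132068062 (minus), Rasgef1c at chr11:49901835-49980994 (plus) and Rgr at chr14:37034909-37048964 (minus). Elk4, on the opposite strand, overlaps Mfsd4a and had 943 to 3218 counts. The kit was stranded, but the strand setting of the counting was not stated in the sources used here, so reads of the pair may not be fully separated.

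RefSeq gave a promoter window of 300 bases, from 250 before to 50 after the start, for 7 of the 9 members (GRCm38.p6, not for Clic6 or Sostdc1). The windows were searched on both strands for 6 motifs. RBPJ is the DNA-binding partner of activated Notch, and its core TGGGAA stands in 25.5% of 27025 promoters and in 0 of the 7 member windows. The forkhead core TGTTTAC (3.55% of promoters) and the AP-1 site TGANTCA (7.93%) were also in 0 of 7. The letters of a TATA box (TATAAA, 14.2% of promoters) were in 2 windows, those of Slc26a4 and Hepacam2. In the Hepacam2 window they stand at -235 and -233 from the start, away from the place close to the start that they have in Slc26a4. The TEAD core GGAATG (14.6%) was in 2, those of Rgr and Rasgef1c, and the NF-kB motif (4.35%) in 1, that of Rasgef1c. These shares are descriptions of letters in 1 window per gene and say nothing of binding. The 3 windows that hold a motif and begin within 50 bases of the annotated gene start are shown with the motif in capitals. In the Slc26a4 window (chr12:31559935-31560234, minus strand) the capitals mark a TATA box 31 bases before the start. In the Rgr window (chr14:37048965-37049264, minus strand) they mark a TEAD core on each strand. In the Rasgef1c window (chr11:49901585-49901884, plus strand) they mark first the NF-kB motif and then a TEAD core read on the minus strand.
Slc26a4: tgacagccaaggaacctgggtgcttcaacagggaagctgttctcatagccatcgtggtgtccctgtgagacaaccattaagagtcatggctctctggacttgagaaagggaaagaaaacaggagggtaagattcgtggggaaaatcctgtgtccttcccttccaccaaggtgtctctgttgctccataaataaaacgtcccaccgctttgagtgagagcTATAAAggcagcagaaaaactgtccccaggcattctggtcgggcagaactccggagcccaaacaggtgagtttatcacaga
Rgr: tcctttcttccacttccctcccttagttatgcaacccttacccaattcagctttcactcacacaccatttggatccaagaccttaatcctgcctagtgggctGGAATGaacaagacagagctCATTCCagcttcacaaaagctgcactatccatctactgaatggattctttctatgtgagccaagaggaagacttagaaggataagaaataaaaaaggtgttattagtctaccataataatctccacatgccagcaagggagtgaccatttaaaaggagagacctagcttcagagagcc
Rasgef1c: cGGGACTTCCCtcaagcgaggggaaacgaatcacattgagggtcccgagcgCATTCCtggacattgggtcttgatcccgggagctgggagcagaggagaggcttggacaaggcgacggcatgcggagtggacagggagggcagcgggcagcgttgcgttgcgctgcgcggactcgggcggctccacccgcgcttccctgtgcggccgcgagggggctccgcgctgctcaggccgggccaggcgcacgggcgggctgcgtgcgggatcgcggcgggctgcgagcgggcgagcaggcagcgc

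The base composition of these windows also differed. G and C made up 72% of the Rasgef1c, 68% of the Npy and 64.3% of the Mfsd4a window, above the upper quartile of all promoters (61.7%), and 43% of the Rgr and the Hepacam2 window, under the lower quartile (45.7%). The Hepacam2 and Asic1 windows start 3800 and 21856 bases from the annotated gene start, so they belong to inner transcript starts.

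Libraries held 27301396 to 123907626 counts, with a median of 38191068, and 3 counts correspond to 0.0242 to 0.110 CPM when scaled by the library total alone. The levels below are CPM scaled by the library total and its TMM factor. Summed levels of 6 epithelial markers, Epcam among them, were 5081 to 8389 CPM in every library, as the label of mammary tumor cells requires. Both PyMT-Dll1mCh Dll1- libraries stood apart by markers of other cells. The sum of 4 fibroblast markers was 3042 and 8016 CPM there, against 456 and 475 in the PyMT-Dll1GFP Dll1- libraries and 414 to 1345 in all Dll1+ libraries. The same 2 libraries had 422 and 561 CPM of 3 pericyte markers, 97.1 and 222 of 3 endothelial markers and 257 and 285 of 5 immune markers, and the PyMT-Dll1GFP Dll1- libraries 19.5 to 25.6, 31.3 to 32.5 and 46.6 to 58.8. Basal markers (Krt5, Krt14, Krt17, Acta2, Myh11 and Oxtr) summed to 110 to 633 CPM in Dll1- and 185 to 1449 in Dll1+ libraries, and Krt5 and Oxtr, 2 of the 6, were higher in Dll1+ cells. So were 1 of 6 luminal markers, Kit (log2 fold change 0.81, adjusted p = 0.00585), and 2 of 4 tuft cell markers, Pou2f3 (0.94, adjusted p = 0.0345) and Trpm5 (1.18, adjusted p = 0.0497). The part of these cells in the rise of the members was not tested.

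The 9 genes rose in Dll1+ cells within each of the 4 mice, as the way they were selected on this contrast requires. By comparison, 21.4% of the 18322 tested genes were higher in all 4 mice. All 9 members passed the filter on low counts, and each would count as called higher, against a background of 6.98% of tested genes called higher and 7.04% called lower. Slc26a4 passed that filter only through its Dll1+ libraries (0.320 to 0.907 CPM, against at most 0.198 CPM in Dll1- libraries). Sostdc1 also needed its Dll1+ libraries, since its PyMT-Dll1GFP Dll1- libraries (0.239 and 0.243 CPM) were under the filter's level. The place of both among the tested genes thus rests on the group where they are high. For 8 of the 9, every Dll1+ library lay above every Dll1- library, which 2.74% of tested genes did. The median log2 fold change of the members was 2.21, or 2.17 without Slc26a4 but with Sostdc1 kept, against 0.00 over all tested genes. In the following paragraphs each member is given as CPM in the libraries of PyMT-Dll1GFP mouse 1 and 2 and then PyMT-Dll1mCh mouse 1 and 2. In bulk libraries, more expressing cells and more RNA per cell cannot be told apart.

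**Figure D1:**
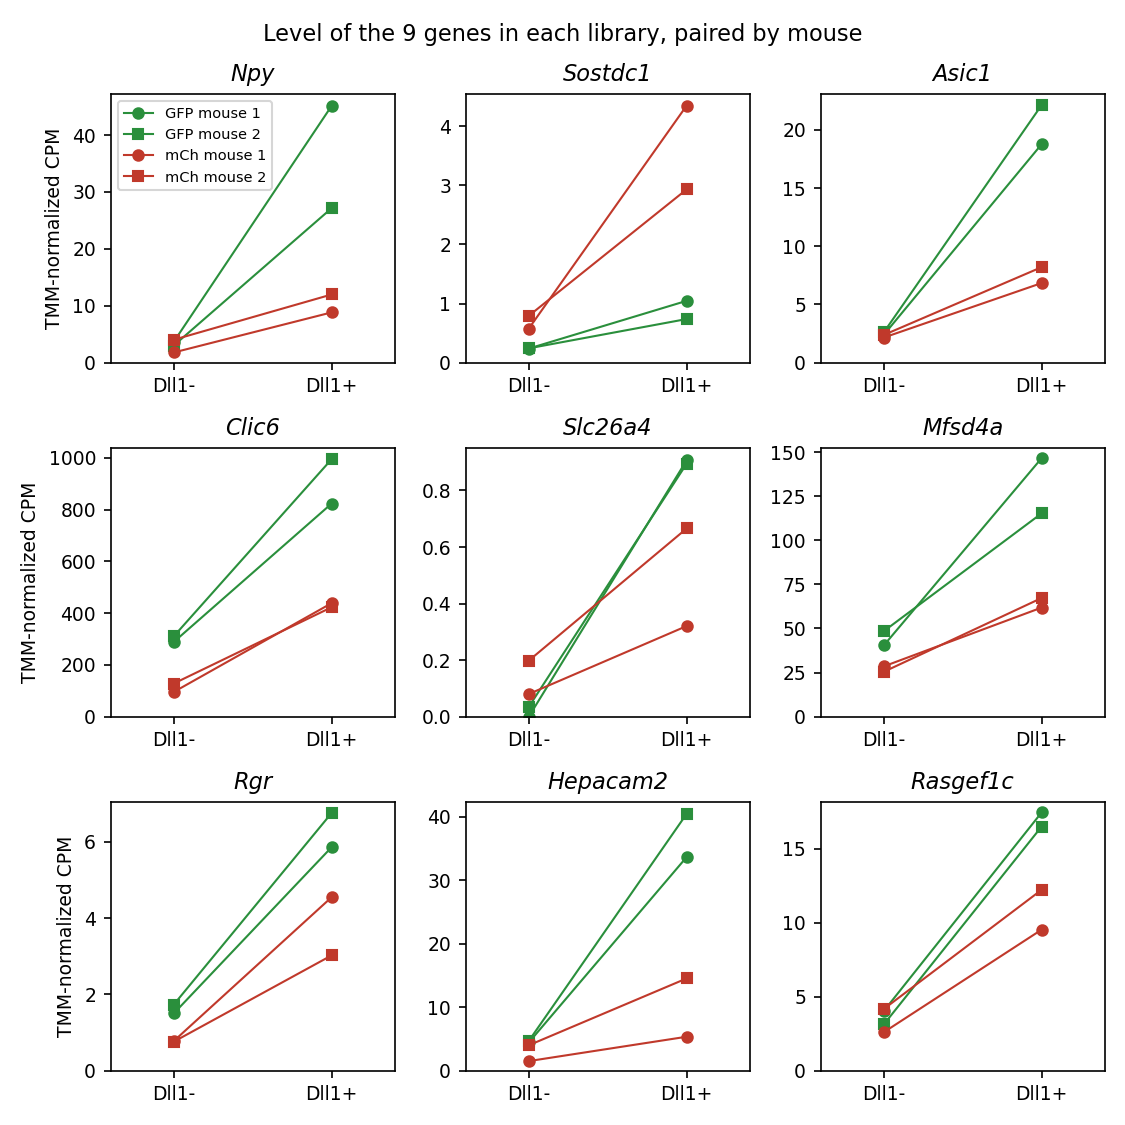
Level of each of the 9 genes (vertical axis, TMM-normalized CPM from 0) in the Dll1- and Dll1+ library of each mouse, joined by a line, with PyMT-Dll1GFP mice in green and PyMT-Dll1mCh mice in red. Every line rises; in Sostdc1 the red lines end above the green ones (2.93 and 4.35 against 0.738 and 1.05 CPM), and in the other 8 genes the green Dll1+ points are above the red ones.

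Of the secreted proteins, Npy stood at 3.68, 3.02, 1.79 and 4.03 CPM in Dll1- and at 45.1, 27.2, 8.84 and 12.0 CPM in Dll1+ libraries. The groups did not overlap, but the PyMT-Dll1GFP Dll1+ libraries were well above the PyMT-Dll1mCh ones. The log2 fold change was 2.66 (SE 0.37) over the 4 mice, 3.40 (SE 0.23) in PyMT-Dll1GFP and 1.95 (SE 0.21) in PyMT-Dll1mCh mice.

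Sostdc1 was the member whose groups overlapped. Its level was 0.239, 0.243, 0.577 and 0.793 CPM in Dll1- libraries, which is 7, 7, 72 and 24 counts. In Dll1+ libraries it was 1.05, 0.738, 4.35 and 2.93 CPM. The Dll1+ library of PyMT-Dll1GFP mouse 2 lay under the Dll1- library of PyMT-Dll1mCh mouse 2, while within each mouse the Dll1+ library was the higher one. The log2 fold change was 2.21 (SE 0.29), with 1.86 (SE 0.44) in PyMT-Dll1GFP and 2.45 (SE 0.35) in PyMT-Dll1mCh mice.

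Among channels and transporters, Asic1 was at nearly one level in all Dll1- libraries and at 2 levels in Dll1+ libraries. It measured 2.39, 2.60, 2.15 and 2.38 CPM in Dll1- and 18.8, 22.1, 6.84 and 8.20 CPM in Dll1+ cells. The fold change was 8.17-fold in PyMT-Dll1GFP (log2 3.03, SE 0.16) and 3.30-fold in PyMT-Dll1mCh mice (log2 1.72, SE 0.15).

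Clic6 was the most abundant member. Its Dll1- libraries held 289, 311, 95.6 and 128 CPM, and its Dll1+ libraries 823, 995, 439 and 423 CPM. Both reporter lines kept their own level, with the PyMT-Dll1mCh values lower on each side. The log2 fold change was 1.60 (SE 0.14) in PyMT-Dll1GFP and 1.96 (SE 0.14) in PyMT-Dll1mCh mice, and Clic6 was one of 3 members, with Rgr and Sostdc1, whose rise was the smaller one in PyMT-Dll1GFP mice.

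Slc26a4 was near the detection limit. It had 0, 1, 10 and 6 counts in the Dll1- libraries and 26, 40, 21 and 37 in the Dll1+ libraries, which is at most 0.198 CPM and at least 0.320 CPM. In PyMT-Dll1mCh mice 58 counts stood against 16, a ratio of 4.64 after scaling by library size (95% exact interval 2.63 to 8.65). In PyMT-Dll1GFP mice 66 counts stood against 1, a ratio of 52.3 whose interval ran from 9.07 to 2097. These intervals cover counting error only, and the size of the rise in PyMT-Dll1GFP mice is thus poorly fixed.

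Mfsd4a had the smallest rise of the 9. Its Dll1- libraries had 40.4, 48.5, 28.5 and 25.4 CPM and its Dll1+ libraries 147, 115, 61.9 and 67.3 CPM. The log2 fold change was 1.55 (SE 0.17) in PyMT-Dll1GFP and 1.26 (SE 0.16) in PyMT-Dll1mCh mice. The rule has no stated threshold: 72 tested genes outside the 9 had a smaller reporter effect at or above that 1.26, so the members are a choice from a longer list and not its top.

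Of the membrane proteins, Rgr was low, at 1.5, 1.73, 0.777 and 0.760 CPM in Dll1- and 5.86, 6.75, 4.55 and 3.02 CPM in Dll1+ libraries. The log2 difference was 1.94 in 3 of the mice and 2.49 in PyMT-Dll1mCh mouse 1. Hepacam2 stood at 4.43, 4.68, 1.51 and 4.0 CPM in Dll1- and 33.6, 40.4, 5.34 and 14.5 CPM in Dll1+ libraries. PyMT-Dll1mCh mouse 1 had the lowest Hepacam2 level on both sides, and the log2 difference in that mouse was 1.80 against 1.85 in the other of its line. The log2 fold change was 1.84 (SE 0.13) in PyMT-Dll1mCh mice, and in PyMT-Dll1GFP mice the log2 fold change was 3.02 (SE 0.13).

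Rasgef1c, the intracellular member, had 4.03, 3.12, 2.59 and 4.16 CPM in Dll1- and 17.4, 16.5, 9.52 and 12.2 CPM in Dll1+ libraries. The log2 fold change was 2.26 (SE 0.17) in PyMT-Dll1GFP and 1.72 (SE 0.17) in PyMT-Dll1mCh mice. In 6 of the 9 members the smaller effect was that of PyMT-Dll1mCh mice. Since the rule used both effects, their difference was not tested. Dll1 itself, whose reporter set the sort, went from 7.61, 13.7, 34.7 and 50.3 CPM to 87.5, 138, 203 and 250 CPM, and its effect too was larger in PyMT-Dll1GFP mice (log2 3.42, SE 0.11, against 2.43, SE 0.10).

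**Figure D2:**
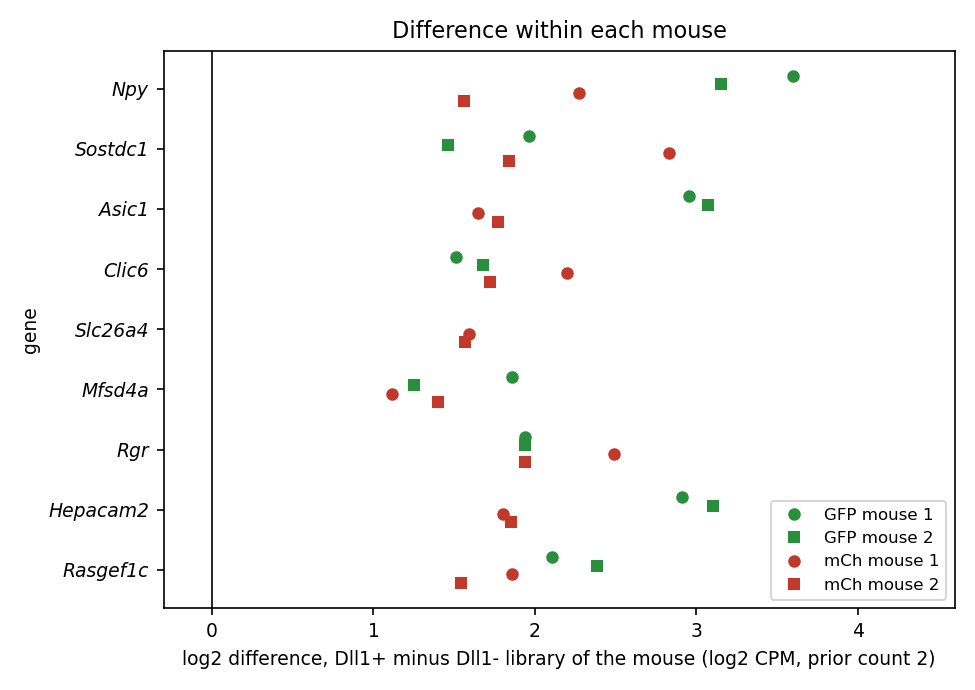
Log2 difference between the Dll1+ and the Dll1- library of each mouse (horizontal axis, log2 CPM with a prior count of 2) for the 9 genes, green for PyMT-Dll1GFP and red for PyMT-Dll1mCh mice, circles for mouse 1 and squares for mouse 2. All points lie right of 0, from 1.12 (Mfsd4a) to 3.60 (Npy); the PyMT-Dll1GFP points of Slc26a4 are left out because its Dll1- libraries held 0 and 1 counts.

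Levels of different genes were compared per kilobase of the longest annotated transcript, as CPM per kb. In Dll1+ cells Clic6 led with a mean of 178 CPM per kb, followed by Npy (41.1), Mfsd4a (29.7), Hepacam2 (6.20), Rasgef1c (4.12), Asic1 (3.40), Sostdc1 (1.27), Rgr (1.07) and Slc26a4 (0.227). Clic6 was above Npy in every library, and so was Mfsd4a above Hepacam2 and Rgr above Slc26a4, whereas the ranges of the other neighbors overlapped. In Dll1- cells the order was led by Clic6 (54.7), Mfsd4a (10.9) and Npy (5.53), and there the ranges of Mfsd4a and Npy did not overlap, so Npy moved from the third to the second place with a range that overlapped that of Mfsd4a.

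The level of each gene in one reporter line against the other was tested within Dll1- and within Dll1+ cells. The rule did not compare the lines, but the levels compared here also enter the rise that chose the members. The comparison, above all that in Dll1+ cells, is therefore not independent of the choice. The reporter lines differ in mice, in the reporter construct and in what the sort collected, and these cannot be told apart. Each group has 2 mice. Many genes differed: in Dll1- cells 18.7% of tested genes were higher and 17.9% lower in PyMT-Dll1mCh mice, and in Dll1+ cells 15.2% were higher and 15.4% lower.

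In Dll1+ cells 5 of the 9 members were lower and 1 was higher in PyMT-Dll1mCh mice. The lower ones were Clic6 (log2 fold change -1.08, SE 0.17, adjusted p = 0.00688), Asic1 (-1.44, SE 0.18, adjusted p = 0.00458), Mfsd4a (-1.02, SE 0.15, adjusted p = 0.00621), Npy (-1.79, SE 0.42, adjusted p = 0.0212) and Hepacam2 (-1.90, SE 0.56, adjusted p = 0.0439). Sostdc1 was higher, by 2.04 on the log2 scale (SE 0.35, adjusted p = 0.00891). Rasgef1c (-0.64, adjusted p = 0.107), Rgr (-0.74, adjusted p = 0.0750) and Slc26a4 (-0.87, adjusted p = 0.273) did not pass the threshold. In terms of levels, Npy averaged 36.1 ± 12.7 CPM (SD, n = 2) in PyMT-Dll1GFP and 10.4 ± 2.22 in PyMT-Dll1mCh Dll1+ cells, and Sostdc1 0.892 ± 0.218 and 3.64 ± 1.0. The median difference of the members was -1.02 against 0.07 over all tested genes.

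In Dll1- cells 3 members were lower and 1 was higher in PyMT-Dll1mCh mice. Clic6 differed by -1.42 (SE 0.17, adjusted p = 0.00222), Rgr by -1.07 (SE 0.29, adjusted p = 0.0270) and Mfsd4a by -0.72 (SE 0.15, adjusted p = 0.0120). Sostdc1 differed by 1.47 in the other direction (SE 0.41, adjusted p = 0.0300). It had 7 and 7 counts in the PyMT-Dll1GFP Dll1- libraries and passed the filter only with its Dll1+ libraries. The Sostdc1 call thus rests on low counts. Asic1 (-0.14, SE 0.19), Rasgef1c (-0.10, SE 0.28) and Npy (-0.25, SE 0.44) had close to the same mean level in both lines, with adjusted p of 0.594, 0.807 and 0.690, and Hepacam2 differed by -0.79 (SE 0.59, adjusted p = 0.332). Slc26a4, at 0 and 1 counts in one line and 10 and 6 in the other, had an adjusted p of 0.119. The median over the members without Slc26a4, with Sostdc1 kept, was -0.48, against 0.01 over all tested genes.

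Clic6, Mfsd4a and Sostdc1 thus passed in both comparisons with one direction each, Sostdc1 in Dll1- cells at the low counts given above. Npy, Asic1 and Hepacam2 passed in Dll1+ cells and not in Dll1- cells, and Rgr in Dll1- cells and not in Dll1+ cells. Whether the reporter lines differ more on one side was not tested. Dll1 went against most members: it was higher in PyMT-Dll1mCh mice by 1.99 in Dll1- cells (adjusted p = 0.00724), and the difference of 1.01 in Dll1+ cells did not pass (adjusted p = 0.0616). The basal markers moved in the direction of Sostdc1, with sums of 1254 and 1449 CPM in PyMT-Dll1mCh against 185 and 343 in PyMT-Dll1GFP Dll1+ libraries and 4 of 6 markers called higher. Of the other markers, all 4 fibroblast, 3 pericyte, 3 endothelial and 4 tested immune ones were higher in PyMT-Dll1mCh Dll1- cells, and 3 fibroblast, 3 pericyte, 0 endothelial and 2 immune ones in Dll1+ cells. The part of basal and other cells in these differences was not tested. The 4-group fit treats the 2 libraries of a mouse as independent. With the 4 Dll1- libraries fitted alone, Clic6 and Mfsd4a passed, and Rgr (adjusted p = 0.0661) and Sostdc1 (0.0662) did not. Hepacam2 in Dll1+ cells did not pass with the 4 Dll1+ libraries alone (0.0504), where Rasgef1c passed (0.0442). A further fit summed the Dll1- and the Dll1+ library of each mouse, so it compares whole mice and not Dll1+ cells. In it Hepacam2 did not pass (0.0932) and Rgr did (0.0349). With 1 mouse left out, its line has 1 library per side, which is assumed to vary like the other groups, and these may differ in spread. The chi-square per degree of freedom between replicates was 19.0 and 25.6 in PyMT-Dll1GFP and 174 and 132 in PyMT-Dll1mCh mice. This measure grows with depth as well as with spread. Depth reached 45198980 counts in PyMT-Dll1GFP and 123907626 in PyMT-Dll1mCh libraries, and its part in the gap was not tested. Without either PyMT-Dll1GFP mouse, 0 genes of the table passed in either comparison by edgeR (5416 and 5529 at an unadjusted p under 0.05 in Dll1- cells, 4816 and 4387 in Dll1+ cells), with adjusted p of 0.0697 to 0.199 for the 4 calls in Dll1- cells and 0.120 to 0.263 for the 6 in Dll1+ cells. The direction held in those fits. Mfsd4a (adjusted p = 0.0569) and Sostdc1 (0.0539) in Dll1- cells were also lost without PyMT-Dll1mCh mouse 2, without which Hepacam2 passed there (-1.55, adjusted p = 0.00185). In Dll1+ cells Rgr passed without PyMT-Dll1mCh mouse 1 (adjusted p = 0.0260) and Rasgef1c without mouse 2 (0.0242).

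**Figure D3:**
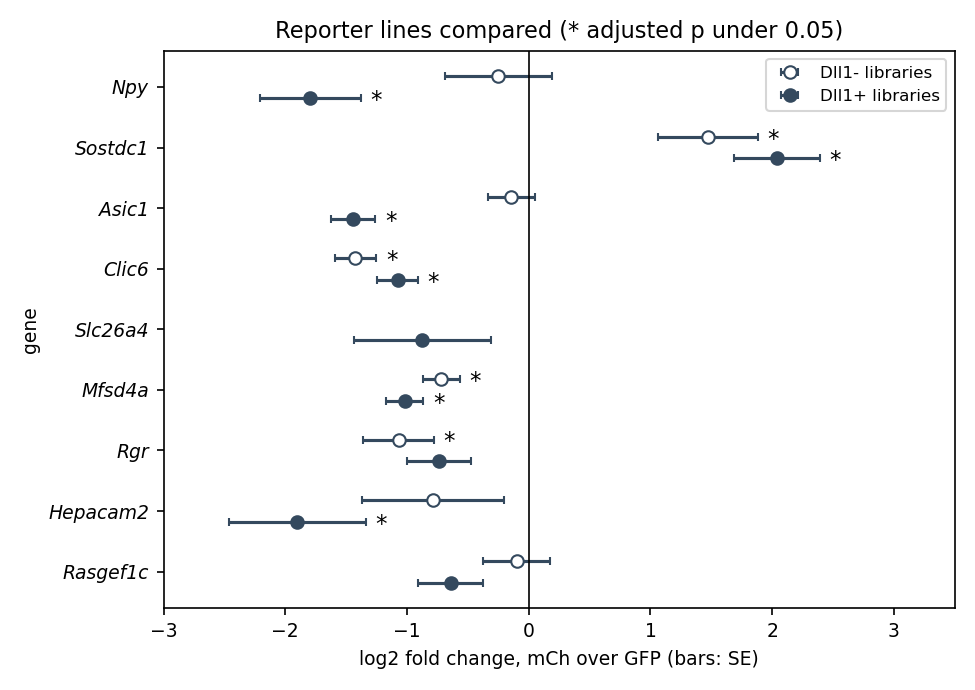
Log2 fold change of PyMT-Dll1mCh over PyMT-Dll1GFP mice (horizontal axis, bars are the SE of the fit) for each gene in Dll1- libraries (open) and Dll1+ libraries (filled), with a star at an adjusted p under 0.05. Sostdc1 lies right of 0 in both (1.47 and 2.04), the filled points of the other genes lie left of 0, and the Dll1- point of Slc26a4 is left out for its 0 and 1 counts.

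Over the 8 libraries the members followed each other unequally. The correlation of log2 CPM with the mean of the other 8 was 0.99 for Rasgef1c, 0.98 for Asic1, 0.97 for Npy, 0.93 for Rgr, 0.92 for Mfsd4a, 0.91 for Hepacam2, 0.89 for Clic6, 0.85 for Slc26a4 and 0.46 for Sostdc1. Of 36 pairs the lowest was Hepacam2 with Sostdc1 (0.27), the highest Rasgef1c with Npy (0.97), and the median 0.89. With Dll1 itself the correlation was highest for Sostdc1 (0.91) and Slc26a4 (0.90) and lowest for Clic6 (0.44). The points are 4 pairs of libraries that share a mouse, and the choice of members by this contrast makes such values high, so they are descriptions.

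The tested genes with the pattern most like the members' mean, by the same correlation over 8 libraries, were Plekhf1 (0.99), Adgrl3 (0.98), Fuz (0.98), Casp12 (0.98), Hcar2 (0.98) and Gpr85 (0.98). Their differences were smaller than those of the members. Adgrl3, a latrophilin-type adhesion receptor, had 8.90, 6.97, 5.98 and 8.46 CPM in Dll1- and 20.5, 21.4, 13.9 and 14.6 CPM in Dll1+ libraries. Hcar2, a receptor for hydroxycarboxylic acids and niacin, had 11.8, 11.9, 9.08 and 12.4 CPM against 27.2, 30.4, 17.2 and 25.5. Fuz, a planar polarity effector needed for cilia, changed least, with a log2 fold change of 0.35 (SE 0.06).

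Genes of the families and pathways of the members, the members themselves left out, were then tested between Dll1+ and Dll1- cells. Of 112 tested genes in 9 lists, 19 (17%) were higher and 4 (3.57%) were lower, beside 6.98% and 7.04% of all tested genes. Their median log2 fold change was -0.03. The lists were written with earlier results of these data known, so the share is a description.

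The list with the largest share of higher genes was that of ionocytes and renal intercalated cells, acid-base and chloride transporting cells that are defined by Foxi1, by the proton pump V-ATPase and, in some types, by pendrin (Slc26a4). Of its 19 genes, 11 were tested, 4 were higher in Dll1+ cells and 0 lower. Foxi1, the forkhead factor of these cells, had 137, 132, 59.8 and 50.7 CPM in Dll1- and 252, 303, 162 and 118 CPM in Dll1+ libraries (log2 fold change 1.18, SE 0.10, adjusted p = 0.00534). Atp6v1b1, a V-ATPase subunit typical of them, had 363, 351, 106 and 166 CPM against 739, 760, 373 and 411 (1.31, SE 0.14, adjusted p = 0.00734). Both rose within every mouse, with log2 fold changes of 1.04 in PyMT-Dll1GFP and 1.33 in PyMT-Dll1mCh mice for Foxi1 and of 1.07 and 1.56 for Atp6v1b1. Car12, a carbonic anhydrase, had 212, 252, 227 and 139 CPM against 442, 607, 350 and 274 (0.98, SE 0.11, adjusted p = 0.00789). Tfcp2l1, a transcription factor of intercalated cells, was at the edge of the threshold with 86.5, 58.5, 12.1 and 21.4 CPM against 102, 94.5, 30.2 and 34.4 (0.73, SE 0.17, adjusted p = 0.0498). It did not pass without any one of the 4 mice (adjusted p 0.0597 to 0.139), and Car12 did not pass without PyMT-Dll1GFP mouse 1 (0.0501).

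Some other genes of such cells were near the detection limit, and others were detected without passing the threshold. Ascl3 had 0 to 13 counts per library, Dmrt2 1 to 56 counts, mostly in the PyMT-Dll1mCh Dll1- libraries, and Atp6v0d2 at most 1.16 CPM (log2 fold change -0.96, adjusted p = 0.0896). Car2, a second carbonic anhydrase of intercalated cells, had 22.5 to 59.0 CPM and gave -0.36 (adjusted p = 0.0807). Of 2 other genes of the list, Atp6v1c2 had 79.2 to 304 CPM and gave -0.47 (adjusted p = 0.175). Atp6v0a4 had 0.485 to 5.70 CPM and gave 1.03 (adjusted p = 0.413). Insrr, the alkali-sensing receptor, gave 1.47 (SE 0.45, adjusted p = 0.0831). Foxi1 and Atp6v1b1 thus came without several of the genes they are usually seen with, and no cell type is named from them. Between reporter lines Foxi1 and Atp6v1b1 were lower in PyMT-Dll1mCh mice, as Clic6 was, in Dll1+ cells by -0.99 (adjusted p = 0.00986) and -0.94 (adjusted p = 0.0163) and in Dll1- cells by -1.28 (adjusted p = 0.00317) and -1.39 (adjusted p = 0.00359). Their correlation with the members' mean was 0.82 and 0.86 over the 8 libraries, ranks 521 and 313 among 18313 genes outside the members. The choice of members by the Dll1 contrast makes such values high for genes that rise in Dll1+ cells.

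**Figure D4:**
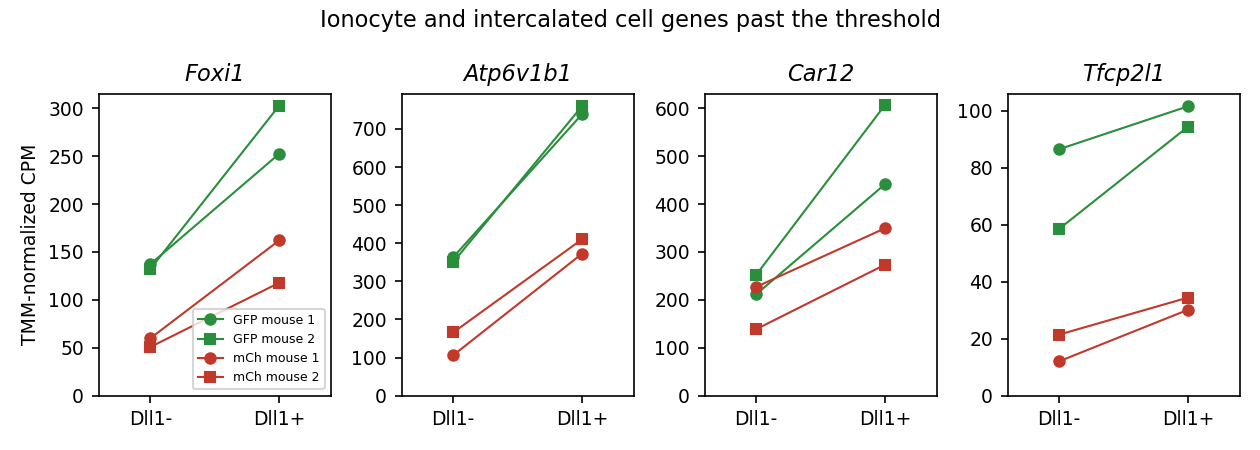
TMM-normalized CPM (vertical axis from 0) of the 4 ionocyte and intercalated cell genes that passed the threshold, in the Dll1- and Dll1+ library of each mouse, green for PyMT-Dll1GFP and red for PyMT-Dll1mCh mice. Each line rises, and for Foxi1, Atp6v1b1 and Tfcp2l1 both red points lie under both green ones on the Dll1- and on the Dll1+ side.

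Of the closest relatives of the members most did not pass the test. Among acid-sensing and epithelial sodium channels, 4 of 7 were tested, and Asic2, the sister channel of Asic1, fell by 2.45 on the log2 scale (SE 0.35, adjusted p = 0.0126). Asic2 went from 0.409, 0.971, 2.40 and 0.793 CPM to 0.0349, 0.112, 0.717 and 0.126 CPM, so the levels are low. The Dll1+ library of PyMT-Dll1GFP mouse 1 lay under the 0.106 CPM of 3 counts there, so the size of the fall is poorly fixed. Asic2 passed the filter only with its Dll1- libraries, where it is high. It lost the call without PyMT-Dll1GFP mouse 1 (adjusted p = 0.0535). Of 14 tested CLIC proteins and chloride channels, 3 were higher: Ano1, the calcium-activated chloride channel (0.74, SE 0.08, adjusted p = 0.00797), Clcn2 (0.49, adjusted p = 0.0342) and Clic3 (1.14, adjusted p = 0.0468). Ano1 was abundant, with 519, 575, 325 and 451 CPM in Dll1- and 1015, 944, 521 and 691 CPM in Dll1+ libraries, and only the fit without PyMT-Dll1mCh mouse 1 lost it among those without 1 mouse (0.0515). Of 8 tested SLC26 exchangers, Slc26a8 (0.81, adjusted p = 0.0471) and Slc26a11 (0.32, adjusted p = 0.0491) were higher.

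For the secreted members, 5 of 12 genes for Npy relatives, receptors and peptide processing were tested, and Cpe, a carboxypeptidase that trims peptide precursors, was higher by 0.46 (SE 0.11, adjusted p = 0.0438). Neuronal and neuroendocrine markers were scarce, with a summed level of at most 3.60 CPM in Dll1- and 1.30 CPM in Dll1+ libraries, and Syp, one of them, was lower in Dll1+ cells (-1.74, adjusted p = 0.0308). Of 17 tested genes of BMP and Wnt antagonism and response, Fst, the secreted activin and BMP binder (1.44, SE 0.30, adjusted p = 0.0372), and Lrp6, the Wnt co-receptor that Sostdc1 binds (0.35, SE 0.06, adjusted p = 0.0172), were higher, and Id3, a BMP response gene, fell by 0.74 (SE 0.16, adjusted p = 0.0383). Id3 stood at 12.9, 14.6, 55.5 and 107 CPM in Dll1- and 10.04, 7.74, 40.9 and 46.5 CPM in Dll1+ libraries. It was highest in the PyMT-Dll1mCh Dll1- libraries, which also had the most fibroblast and pericyte markers, and the part of those cells was not tested. Id1 (0.37), Id2 (0.04), Smad6 (-0.05) and Smad7 (0.11), also genes of that response, did not pass.

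Around Rgr, 19 genes of opsins and retinoid handling were tested, and 4 were higher and 1 lower. Cyp26a1, which degrades retinoic acid, had 0.921, 1.35, 1.75 and 2.87 CPM in Dll1- and 8.09, 4.65, 12.3 and 7.34 CPM in Dll1+ libraries (2.26, SE 0.34, adjusted p = 0.0155), without overlap. Dhrs9 (1.31, adjusted p = 0.0149) and Aldh1a3 (0.52, adjusted p = 0.0244), both of retinoic acid synthesis, and Crabp2, its carrier (0.31, adjusted p = 0.0197), were also higher. The lower gene was Rdh10, also an enzyme of retinoic acid synthesis (-0.46, SE 0.11, adjusted p = 0.0490), at 18.05, 17.1, 13.8 and 20.05 CPM in Dll1- and 13.4, 10.1, 12.4 and 14.2 CPM in Dll1+ libraries. Of 23 tested Ras and Rap exchange factors, Rgl3 (0.74, SE 0.05, adjusted p = 0.00534), Sos2 (0.27, adjusted p = 0.0325) and Rapgef6 (0.22, adjusted p = 0.0484) were higher. Of 11 tested adhesion proteins of the immunoglobulin type, Jam2 fell by 0.52 (SE 0.13, adjusted p = 0.0465). Of the 22 genes named from the lists, 3 (Foxi1, Atp6v1b1 and Rgl3) passed in all 4 fits that left out 1 mouse. Clic3, Cpe, Slc26a8, Slc26a11, Sos2, Rapgef6, Jam2 and Tfcp2l1 passed in none of them, and Fst and Id3 passed only without PyMT-Dll1mCh mouse 2 (adjusted p = 0.00941 and 0.0493). Cyp26a1 did not pass without PyMT-Dll1GFP mouse 1 (0.0571) or mouse 2 (0.0514) or without PyMT-Dll1mCh mouse 1 (0.0824).

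Channels and transporters as whole families were taken by gene symbol, to be read beside the 6.98% of all tested genes called higher and 7.04% called lower. SLC carriers (9.4% and 8.27%) and P-type ATPases (6.25% and 6.25%) lay near those shares, and ABC transporters had 5.26% and 21.1%. Of 266 tested SLC carriers other than the members, 25 were higher and 22 lower, of 38 ABC transporters 2 and 8, of 42 potassium channels 5 and 1, of 17 TRP channels 3 and 0, of 20 V-ATPase subunits 3 and 0, and of 7 aquaporins 0 and 0. Of 19 MFSD transporters related to Mfsd4a, Mfsd1 (0.26) and Mfsd9 (0.40) were higher and Mfsd12 fell by 0.52. Of 32 P-type ATPases 2 were higher and 2 lower, and Atp2a3, a calcium pump of the endoplasmic reticulum, rose from 90.9, 92.9, 80.0 and 113 CPM to 628, 379, 160 and 328 CPM (1.83, SE 0.31, adjusted p = 0.0269). Of the fits without 1 mouse Atp2a3 passed only in that without PyMT-Dll1mCh mouse 2 (0.0491). Of 18 voltage-gated sodium and calcium channels, 2 were higher and 1 was lower.

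Among the family genes with the lowest p, several were lower in Dll1+ cells. Slc7a1, a carrier of cationic amino acids, went from 41.6, 42.4, 39.4 and 36.1 CPM to 23.1, 22.5, 22.2 and 21.8 CPM (-0.83, SE 0.06, adjusted p = 0.00534). Slc25a34, a mitochondrial carrier, went from 8.53, 14.7, 16.3 and 18.1 CPM to 1.92, 2.06, 4.79 and 5.52 CPM (-2.10, SE 0.21, adjusted p = 0.00666), and Kcnk6, a leak potassium channel, from 18.4, 17.6, 19.4 and 16.98 CPM to 6.28, 6.73, 9.48 and 7.95 CPM (-1.26, SE 0.12, adjusted p = 0.00619). Slc7a1, Slc25a34, Kcnk6, the drug efflux pump Abcg2 (-0.77) and the calcium channel subunit Cacnb1 (0.57) were the 5 of 24 named family genes that passed in all 4 fits without 1 mouse. Kcnh8, a potassium channel, had 0.751, 0.589, 0.296 and 2.25 CPM in Dll1- and 4.53, 3.29, 0.809 and 6.21 CPM in Dll1+ libraries (1.96, SE 0.28, adjusted p = 0.0125), and lost the call without PyMT-Dll1GFP mouse 1 (0.0566) or PyMT-Dll1mCh mouse 1 (0.0534).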

How the data were processed

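RNA was sequenced from 8 sorted libraries of 4 mice (TruSeq Stranded kit). The authors quantified reads with salmon against GENCODE M20 mouse transcripts (GRCm38.p6), collapsed transcripts to genes by tximport, and the deposited table holds their estimated counts, whole and not normalized. Tool versions were not given in the sources used here. Of 53697 genes, 53668 had a symbol and coordinates in GENCODE M21 (GRCm38), used here for names and positions. Promoter windows are from RefSeq.

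Counts were scaled by TMM and tested with edgeR 4.0.16 (R 4.3.3), by robust quasi-likelihood F tests on the 18322 genes kept by filterByExpr on Dll1 status, with Benjamini-Hochberg adjustment over all of them and a threshold of 0.05. Dll1+ and Dll1- cells were compared in a model that holds the mouse as a block, as in the study's methods. A second fit with an effect per reporter gave the folds per line. Reporter lines were compared in a fit of 4 groups without a block. Log2 CPM used a prior count of 2, and ratios of low counts have exact binomial intervals. The 2 libraries of a mouse were paired by the mouse named in the labels. Their deviations from the group means correlated at 0.55 in PyMT-Dll1mCh and -0.05 in PyMT-Dll1GFP mice. In the test of Dll1+ against Dll1- cells, p-values measure the spread of the difference within a mouse over the 4 mice. In the reporter comparisons they measure the spread between the 2 libraries of a group, shared over the 4 groups. There the 2 libraries of a mouse count as independent. No replicate pair differed by as little as counting noise (chi-square per degree of freedom 19.0 or more).

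The members and gene lists were chosen with earlier results of these data known. Genes named are the 9 members, Dll1, up to 4 genes past the threshold with the lowest p per list, up to 2 higher and 2 lower per symbol family, the 6 genes most correlated with the members' mean, and markers of the sort. Insrr, Car2, Atp6v1c2, Atp6v0a4, Ascl3, Dmrt2, Atp6v0d2, Rdh10 and Elk4 were named after their values were seen, or as markers. The scripts were tested on simulated counts. Alternatives were RLE size factors, DESeq2 1.42.0, other filters, no block, single reporters, and each mouse left out.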

Additional observations from a re-analysis of the deposited data

How the results depend on the processing

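The median log2 fold change of the 9 members between Dll1+ and Dll1- cells was 2.21. It moved to 1.85 with the PyMT-Dll1mCh libraries fitted alone, and lay between 2.02 and 2.34 when 1 mouse was left out and at 2.26 with the PyMT-Dll1GFP libraries alone. Each member kept its direction under the alternatives that gave it a value, which with at least 10 counts in every library were 7 members, without Sostdc1 and Slc26a4. All 9 members lay past the threshold, as did 2568 of all 18322 tested genes. With 1 mouse left out 5 to 8 members passed, while the calls over all genes ran from 405 to 2400. By edgeR in PyMT-Dll1mCh libraries alone, 0 members and 0 of all 19945 genes passed after adjustment. There 9 members and 5512 of all genes had an unadjusted p under 0.05. The members were chosen by this contrast, so these counts are a description.

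Without the mouse as a replicate block, neither the members (0) nor the related genes (0) passed in edgeR, since reporter line differences then count as spread. In that fit 0 of all 18322 genes passed. An unadjusted p under 0.05 was reached by 9 members, 15 related genes and 1624 of all genes. With the reporter as a term in place of the replicate block, an alternative chosen after seeing the data, the members' count stayed at 9. That of the related genes was 7 and that of all genes 1352. The block could not be fitted for the reporter comparisons, because each mouse has 1 reporter.

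The number of related genes past the threshold was 23, with 37 by DESeq2, 0 by edgeR in PyMT-Dll1mCh libraries alone (46 at an unadjusted p under 0.05) and 4 to 14 with 1 mouse left out. In the same fits the calls over all genes were 2568, 4362, 0 and 405 to 2400. The number of members that differed between reporter lines in Dll1- cells was 4, with 2 (Clic6 and Mfsd4a) when the 4 Dll1- libraries were fitted alone and 0 to 4 with 1 mouse left out. In Dll1+ cells it was 6, with 0 to 7. Hepacam2 in Dll1+ cells also did not pass with no filter (adjusted p = 0.179). The remaining alternatives kept these counts within 1.5 times. Slc26a4, with 0 and 1 counts in 2 libraries, is limited by depth.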
